A study of Mus musculus with 6 samples.

Results

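Costimulatory and checkpoint ligands are surface proteins through which an antigen-presenting cell tells a T cell to respond or to stop. The 8 genes described here are Cd274, Pdcd1lg2, Cd80, Cd86, Cd83, Icosl, Tnfsf4 and Slamf1, chosen by symbol, and all 8 had at least 1 probe that named only that gene. They had 11 probes, of which 7 carried a ratio on all 6 arrays, so 7 of the 8 genes were among the 9607 genes tested. Icosl had no probe with a ratio on every array and is given by its values alone.

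The cells were RAW 264.7, a mouse macrophage-like line from a virus-induced tumour, so every value comes from 1 cell line. Treated cells received lipopolysaccharide (LPS, the outer-membrane component of Gram-negative bacteria) at 100 ng/ml with LPS-binding protein, which carries LPS to its receptor complex, at 100 pM for 16 hours; untreated cells were cultured for the same 16 hours without either agent. Total RNA of both was hybridised together on 6 dual-colour arrays, 3 with the treated RNA in Cy5 and 3 with it in Cy3, each orientation holding sets 1, 2 and 3. The labels do not say that sets were separate cultures, so the p-values reflect only how far these samples spread, possibly for technical reasons. All ratios are treated over untreated on the log2 scale (0 is no difference, 1 is a 2-fold rise), and a gene's mean and SD are over the 3 sets, each the mean of its 2 orientations (n = 3). A gene is said to rise or fall where limma's adjusted p over all genes is under 0.05. The deposited table does not state its direction, which was taken as Cy5 over Cy3. A ratio gives no level, so which genes the untreated cells express cannot be read from it, and in bulk RNA more RNA per cell and more expressing cells cannot be told apart.

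A T cell needs a second signal besides antigen. Cd80 and Cd86 give it by binding CD28, or withhold it by binding the inhibitory receptor CTLA-4, while Icosl and the TNF family member Tnfsf4 (OX40 ligand) feed the related receptors ICOS and OX40. Cd274 (PD-L1) and Pdcd1lg2 (PD-L2) bind PD-1 and restrain T cells already activated. Cd83 marks mature dendritic cells and keeps MHC class II and CD86 on the surface, and Slamf1 is a self-binding receptor of lymphocytes and myeloid cells that also takes part in uptake of bacteria. In macrophages, LPS acts on such genes directly through NF-kappaB and through interferon beta that the cells themselves release.

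Of the 7 genes tested, Cd274 and Cd83 rose (2 of 7, against 16.8% of all genes), and 0 fell (against 14.6% of all genes; 31.4% changed in either direction). Cd274 was 6.13-fold and Cd83 2.65-fold higher in treated cells. The classical costimulators Cd80 and Cd86, the second PD-1 ligand Pdcd1lg2, and Tnfsf4 and Slamf1 did not pass the test. The median over the 7 genes was 0.10, beside -0.01 over all 9607 genes.

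**Figure D1:**
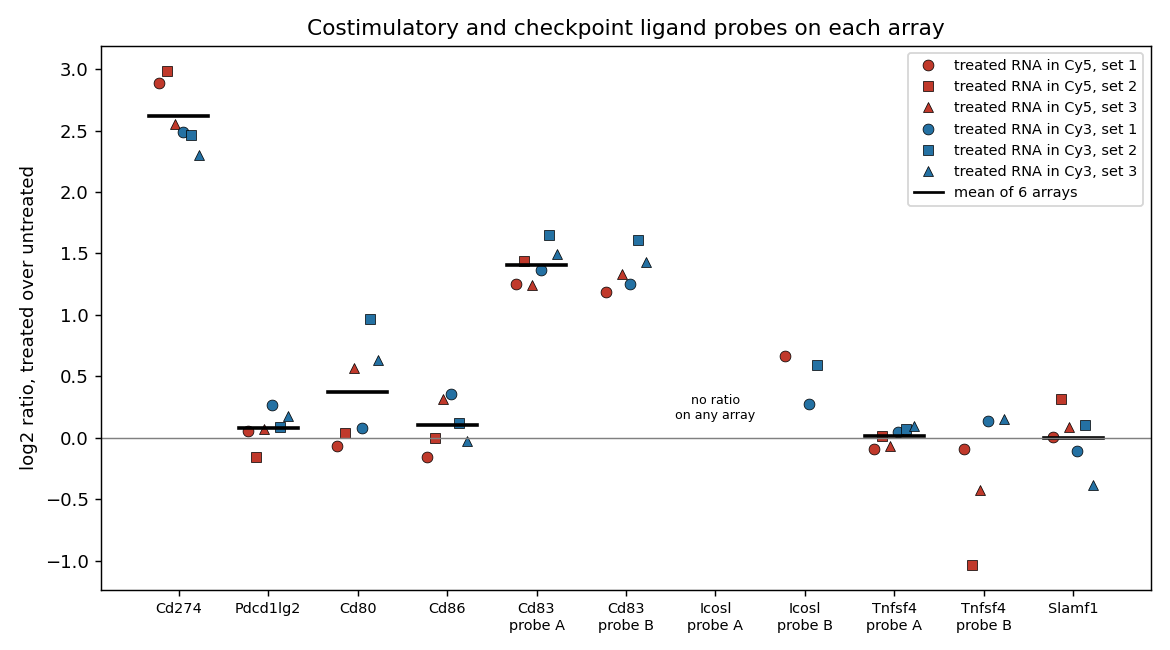
Log2 ratio, treated over untreated (vertical axis), of each of the 11 probes of the 8 genes on each array; colour gives the dye of the treated RNA, the symbol gives the set, and the bar is the mean where all 6 arrays had a ratio. Cd274 lies between 2.30 and 2.99 and both Cd83 probes between 1.19 and 1.65 on every array with a ratio. Icosl lies between 0.27 and 0.67 on the 3 arrays where it had a ratio, and the remaining genes lie around 0 or spread widely.

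The checkpoint ligands come first. The log2 ratio of Cd274 was 2.89, 2.99 and 2.55 in sets 1, 2 and 3 with treated RNA in Cy5, and 2.49, 2.47 and 2.30 with treated RNA in Cy3. All 6 arrays thus showed a rise of similar size, somewhat lower on the Cy3 arrays. Over the sets the mean was 2.62 ± 0.16 (SD, n = 3; 95% interval 5.33 to 7.05-fold; limma adjusted p = 3.67e-06). The orientations differed by 0.39, a dye effect that did not pass (limma adjusted p = 0.244).

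Pdcd1lg2 encodes the other PD-1 ligand and is the next protein-coding gene after Cd274 on chromosome 19. Its ratios were 0.05, -0.16 and 0.07 with treated RNA in Cy5, and 0.27, 0.09 and 0.18 with treated RNA in Cy3. The signs were mixed, with 5 arrays above 0 and 1 below. The mean was 0.08 ± 0.10 (SD, n = 3; limma adjusted p = 0.49), with a 95% interval from 0.935 to 1.2-fold. Within the same arrays Cd274 exceeded Pdcd1lg2 by 2.53 ± 0.23 (SD, n = 3), and by between 2.13 and 3.15 on each of the 6 arrays. The exact sign-flip permutation test over the 3 sets gave p = 0.25, the smallest p that 3 sets allow, so it cannot pass at 0.05, and 0.5 after adjustment over the 2 pairs of ligands compared.

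Both start sites are 43481 bases apart in the RefSeq annotation of GRCm38.p6, and the 250 bases before each are shown because these neighbours share a receptor, while Cd274 passed the test and Pdcd1lg2 did not. The Cd80 window is added as the one with a match to a motif searched. The Cd274 window is chr19:29367188-29367437, that of Pdcd1lg2 chr19:29410669-29410918 and that of Cd80 chr16:38458683-38458932, all on the plus strand; capitals mark matches to the motifs named next.
Cd274: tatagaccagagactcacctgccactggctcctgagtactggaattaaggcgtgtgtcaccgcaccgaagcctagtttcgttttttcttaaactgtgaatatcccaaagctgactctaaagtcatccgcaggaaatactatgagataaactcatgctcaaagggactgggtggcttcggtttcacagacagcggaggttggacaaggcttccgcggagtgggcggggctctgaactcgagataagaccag
Pdcd1lg2: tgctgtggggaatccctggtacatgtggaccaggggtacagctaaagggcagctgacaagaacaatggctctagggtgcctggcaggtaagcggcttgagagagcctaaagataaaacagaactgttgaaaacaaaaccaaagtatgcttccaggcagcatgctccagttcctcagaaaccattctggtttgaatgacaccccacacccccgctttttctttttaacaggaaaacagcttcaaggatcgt
Cd80: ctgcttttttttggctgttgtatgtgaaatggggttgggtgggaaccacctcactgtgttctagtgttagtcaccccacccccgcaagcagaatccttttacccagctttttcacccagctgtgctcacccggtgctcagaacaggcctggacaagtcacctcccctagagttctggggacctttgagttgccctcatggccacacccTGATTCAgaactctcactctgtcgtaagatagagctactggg

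The windows were searched on both strands for 2 motifs, a STAT-type pattern (TTCNNNGAA) and a loose AP-1-like pattern (TGANTCA). N stands for any base. Of all 32851 RefSeq promoter windows of this length, 7.02% and 6.75% held them. The windows of Cd274 and Pdcd1lg2 held 0 matches to either. The Cd80 window held 1 match to the AP-1-like pattern (TGATTCA), from 42 to 36 bases before the start. It held no match to the STAT-type pattern. Of the 8 genes, 5 had a window in the table, and those of Icosl and Slamf1 held 0 matches. A match is a run of letters, and no match says only that these letters are not in these 250 bases.

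Genes on both sides of the Cd274 and Pdcd1lg2 pair were also higher in treated cells. They were looked up after the values of the pair were seen. Among the 4 nearest protein-coding genes on each side of Cd274, the 4 measured ones other than Pdcd1lg2 all rose. The kinase gene Jak2, which signals from the interferon gamma receptor, rose 2.1-fold (1.07 ± 0.26, adjusted p = 0.000468 in limma). Insl6, an insulin-like hormone gene next to Jak2, rose 2.68-fold (1.42 ± 0.06, adjusted p = 2.07e-05). Rln1 (0.25 ± 0.06, limma adjusted p = 0.0348) and Ric1 (0.32 ± 0.07, limma adjusted p = 0.0139) rose by less and lay nearer the threshold. Whether their calls hold with a set or a dye orientation left out was not examined. In gene order Pdcd1lg2, between Cd274 and Ric1, was the measured gene that did not pass.

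**Figure D2:**
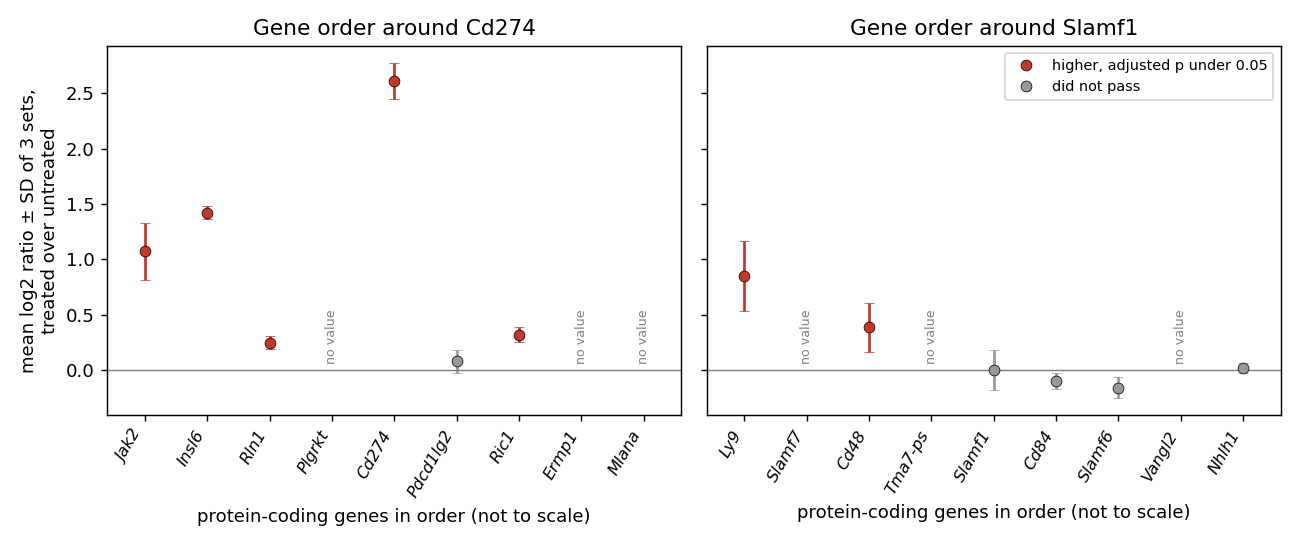
Mean log2 ratio over 3 sets with SD (vertical axis) of the protein-coding genes around Cd274 (left) and Slamf1 (right), in chromosome order and not to scale; red passed limma's test, grey did not, and "no value" marks genes not analysed here. Pdcd1lg2, at 0.08, stands between Cd274, at 2.62, and Ric1, at 0.32; on the right Ly9 and Cd48 passed and Slamf1, Cd84 and Slamf6 did not.

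Cd83 was the other ligand that rose. Its first probe read 1.25, 1.44 and 1.24 with treated RNA in Cy5, and 1.37, 1.65 and 1.49 with treated RNA in Cy3. The mean was 1.41 ± 0.12 (SD, n = 3; 95% interval 2.33 to 3.02-fold; limma adjusted p = 3.52e-05). A second probe had no ratio on 1 array and read between 1.19 and 1.61 on the other 5, so both probes of Cd83 lay in the same range.

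The CD28 and CTLA-4 ligands Cd80 and Cd86 gave small ratios. Cd80 read -0.07, 0.04 and 0.57 in sets 1, 2 and 3 with treated RNA in Cy5, and 0.08, 0.97 and 0.63 with treated RNA in Cy3. Set 1 was near 0 in both orientations and set 3 well above 0 in both, while set 2 was near 0 with treated RNA in Cy5 and had the highest value of all with treated RNA in Cy3. The mean was 0.37 ± 0.32 (SD, n = 3; 1.29-fold), which did not pass (limma adjusted p = 0.0575). Of all genes, 6.2% had a larger SD over the sets. Without set 1, Cd80 was at 0.55 and passed (limma adjusted p = 0.0114); without set 2 it was at 0.30 and without set 3 at 0.26, and neither passed. Over all 14 alternatives the limma adjusted p of Cd80 ran from 0.0114 to 0.41.

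Cd86 read -0.15, 0.00 and 0.32 with treated RNA in Cy5, and 0.36, 0.12 and -0.03 with treated RNA in Cy3. As many arrays lay above 0 as below it, 3 and 3. The mean was 0.10 ± 0.04 (SD, n = 3; limma adjusted p = 0.336), with a 95% interval from 0.958 to 1.2-fold. Cd80 exceeded Cd86 by -0.09, 0.45 and 0.46 in sets 1, 2 and 3 (mean 0.27 ± 0.31), and the exact sign-flip permutation test gave p = 0.5, with 0.25 the smallest possible. With 3 sets this test cannot reach 0.05, so it says nothing about whether these ligands differ.

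Icosl, the ICOS ligand, was measured in part. One of its probes had no ratio on any array. The other had a ratio on 3 arrays, 0.67 and 0.27 in set 1 (treated RNA in Cy5 and in Cy3) and 0.59 in set 2 with treated RNA in Cy3. All 3 values were above 0, but set 3 had none and the dyes were not balanced. With probes kept that had a ratio in at least 2 sets, Icosl was at 0.53 and passed (limma adjusted p = 0.0124). With exact zeros taken as ratios it was at 0.26 and did not (limma adjusted p = 0.126).

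Tnfsf4, the OX40 ligand, read -0.10, 0.02 and -0.07 with treated RNA in Cy5, and 0.05, 0.07 and 0.10 with treated RNA in Cy3. These were the tightest values of the 7 genes, with a mean of 0.01 ± 0.04 (SD, n = 3; limma adjusted p = 0.925) and a 95% interval from 0.901 to 1.13-fold. A second Tnfsf4 probe, with no ratio on 1 array, ranged from -1.04 to 0.15 over the other 5. It was below 0 on all 3 arrays with treated RNA in Cy5 and above 0 on both others, while the first probe stayed within 0.10 of 0 in both orientations.

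Slamf1, the self-binding SLAM receptor, read 0.01, 0.31 and 0.08 with treated RNA in Cy5, and -0.11, 0.10 and -0.39 with treated RNA in Cy3. All 3 arrays with treated RNA in Cy5 lay above 0 and 2 of the others below it. The mean was 0.00 ± 0.18 (SD, n = 3; limma adjusted p = 0.991), with a 95% interval from 0.864 to 1.16-fold.

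**Figure D3:**
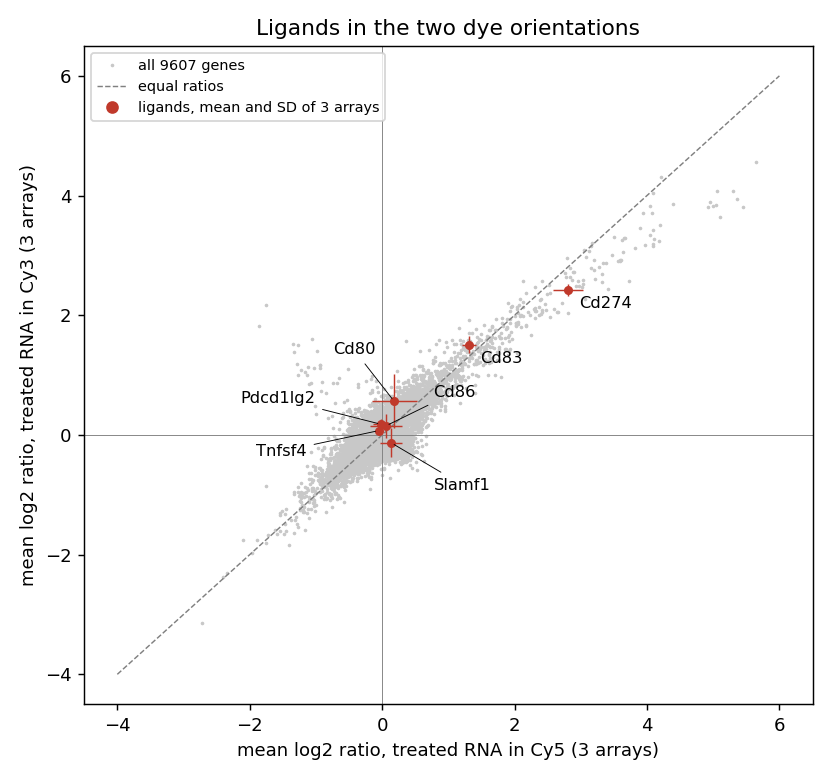
Mean log2 ratio over the 3 arrays with treated RNA in Cy5 (horizontal axis) against that over the 3 arrays with treated RNA in Cy3 (vertical axis); grey points are all 9607 genes, red points the 7 ligands with SDs over 3 arrays, and the dashed line marks equal ratios. Cd274 (2.81 and 2.42) and Cd83 (1.31 and 1.505) lie far from 0 in both orientations, and the other 5 ligands lie within the central cloud.

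The patterns nearest to that of Cd274 over the 6 arrays, by Euclidean distance among 9606 other genes, were those of Irf7 (distance 0.428), a transcription factor of interferon responses, Slc15a3 (0.438), a peptide and histidine transporter, and Lgals9 (0.466). Bcl3 (0.499), an atypical IkappaB protein, and Slpi (0.558), a protease inhibitor, followed. Their mean ratios lay between 2.46 for Slpi and 2.77 for Slc15a3. All 6 arrays compare treated with untreated cells, so a small distance mostly reflects a ratio of similar size. Shared regulation was not tested. Nearest to Slamf1, the member with the lowest mean, were Srrm3, Acbd6, Slc35f4, Mapk1ip1 and Col10a1, at distances of 0.223 to 0.256. None of these 5 passed the test.

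Companion lists set these ligands in their pathway. They held 112 entries in 10 lists, of which 77 were measured. Of the measured genes 33 rose and 5 fell, where 16.8% of all genes rose and 14.6% fell. The signalling list gave 16 of the genes that rose, and the cytokine list 5. All 10 lists were chosen with earlier results of these data known, so these counts are not independent evidence. The counts of the single lists below are small and are to be read beside the shares of all genes. No list was tested as a set. The B7 family outside the 8 genes was thinly covered: Vsir (VISTA, 0.15 ± 0.24) and Btn1a1 (-0.03 ± 0.02) were measured, and neither passed. Of the T cell receptors for B7 ligands, 1 of 4 rose and 0 fell. This was Pdcd1, which encodes PD-1, at 0.36 ± 0.14 (limma adjusted p = 0.0144). Its 2 probes disagreed, at 0.88 and -0.17, and without set 1 it was at 0.29 and did not pass (adjusted p = 0.0936). With treated RNA in Cy5 it was at 0.075 (limma adjusted p = 0.723) and with treated RNA in Cy3 at 0.64, so the ratio differed between the dye orientations. Cd28, Ctla4 and Icos lay at 0.03, 0.02 and -0.20.

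**Figure D4:**
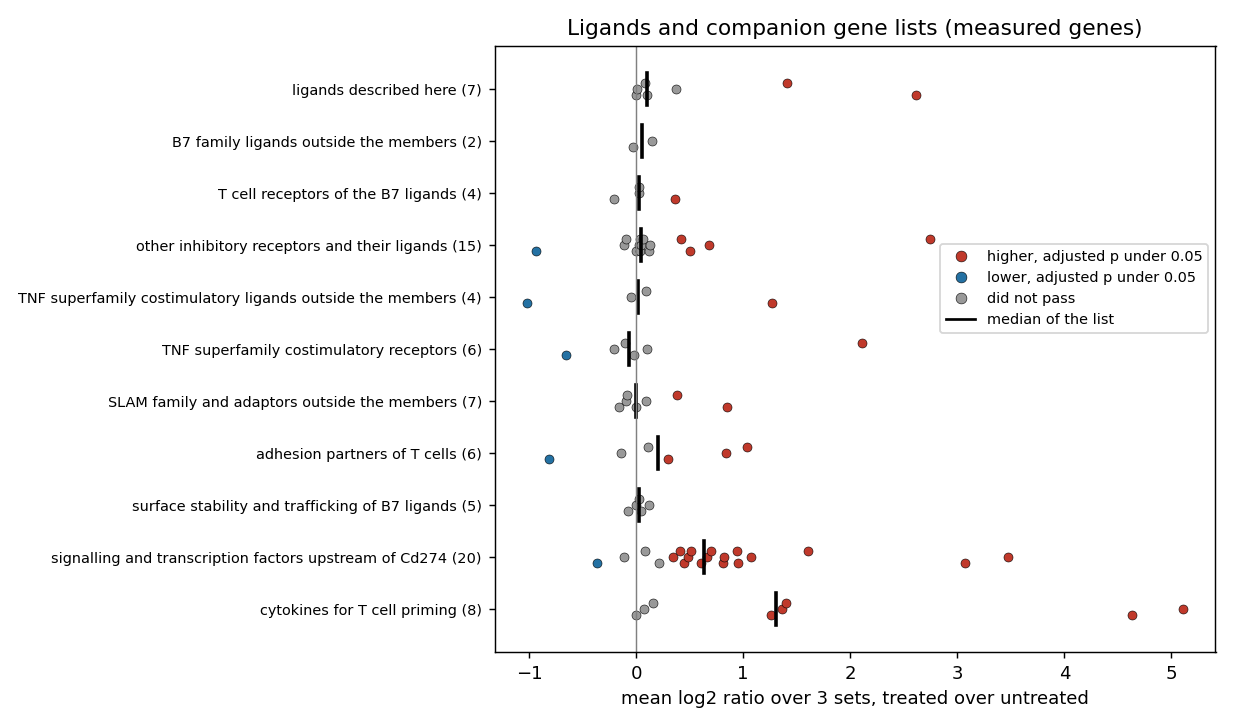
Mean log2 ratio over 3 sets (horizontal axis) of every measured gene of the 8 ligands and of the 10 companion lists, with the number measured in brackets; red rose, blue fell, grey did not pass limma's test, and the bar is the list's median. The ligands have 2 red points, at 1.41 and 2.62, apart from 5 grey ones, and the signalling list has 16 red of 20.

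Among other inhibitory receptors and their ligands, 4 of 15 rose and 1 fell, with a median of 0.05. Lgals9, encoding galectin-9, a ligand of the T cell receptor TIM-3, rose 6.71-fold (2.75 ± 0.12, limma adjusted p = 2.64e-06). It read 2.96, 3.26 and 2.86 with treated RNA in Cy5 and 2.40, 2.51 and 2.49 with treated RNA in Cy3, beside 2.30 to 2.99 over the arrays for Cd274. Cd47, the don't-eat-me signal read by SIRP-alpha, rose 1.6-fold (0.68 ± 0.28, limma adjusted p = 0.00412). Of its 3 probes, 2 were at 0.98 and 1.01 and the other at 0.04. Nectin3, an adhesion protein of the nectin family, fell (-0.93 ± 0.20, limma adjusted p = 0.000476).

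Tnfsf4's relatives in the TNF family went separate ways. Of 4 measured ligands 1 rose and 1 fell. Tnfsf9 (4-1BB ligand), which costimulates CD8 T cells, rose 2.41-fold (1.27 ± 0.31, limma adjusted p = 0.000373). Tnfsf14 (LIGHT) was 2.02-fold lower (-1.02 ± 0.12, limma adjusted p = 0.000144), on all 6 arrays and by both probes. Of the 6 receptors, Cd40, through which helper T cells activate macrophages, rose 4.33-fold (2.11 ± 0.10, limma adjusted p = 5.11e-06). Tnfrsf25, the receptor of TL1A, fell (-0.65 ± 0.40, limma adjusted p = 0.0133). Without set 1 it was at -0.66 and did not pass (adjusted p = 0.053), which left 0 of these receptors down. On the arrays that had treated RNA in Cy5 it was at -0.59 and did not pass either (adjusted p = 0.0849).

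Slamf1 lies on chromosome 1 among other SLAM family genes. Of 7 genes on the list of this family and its adaptors, 2 rose and 0 fell. Ly9 rose 1.8-fold (0.85 ± 0.32, limma adjusted p = 0.00218), and Cd48, the ligand of CD244, rose 1.31-fold (0.39 ± 0.22, limma adjusted p = 0.0231). Cd48 did not pass without set 1 (0.40, adjusted p = 0.0831) or without set 3 (0.27, adjusted p = 0.0587), nor on the 3 arrays that had treated RNA in Cy5 (0.36, adjusted p = 0.11), leaving 1 gene up each time. Cd84 (-0.10) and Slamf6 (-0.16), which follow Slamf1 in gene order, did not pass.

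Molecules by which macrophages hold on to T cells gave 3 of 6 up and 1 down. Itgal (1.03 ± 0.10), the alpha chain of LFA-1, and Alcam (0.84 ± 0.19), the ligand of CD6, rose, and Icam2 (-0.81 ± 0.32), a ligand of LFA-1, fell. Genes listed for the surface stability and trafficking of B7 ligands or of their receptors showed 0 of 5 up and 0 down. Among them Cmtm6, which protects PD-L1 from degradation, was at 0.00 ± 0.12 (limma adjusted p = 0.979). March1 and Cmtm4, also listed, had no probe of their own.

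Signalling and transcription factors upstream of Cd274 gave 16 of 20 up and 1 down, with a median of 0.64. As for the other lists, earlier results on these arrays were known when this list was written, so it is not independent evidence. Myc (3.47 ± 0.46, limma adjusted p = 1.5e-05) and Ifnb1, encoding interferon beta (3.07 ± 0.81, limma adjusted p = 0.000247), rose most. The interferon gamma receptor chain Ifngr1 fell (-0.37 ± 0.10, limma adjusted p = 0.0105), and its partner Ifngr2 rose (0.34 ± 0.10, limma adjusted p = 0.0127). With treated RNA in Cy3 alone Ifngr1 was at -0.21 and did not pass (adjusted p = 0.133), which left 0 genes of this list down. Of cytokines that shape T cell priming, 5 of 8 rose and 0 fell, led by Il6 and Il1b. The third signal cytokines Il12a (0.07) and Il23a (0.15) did not pass, and the Il12a probes lay apart, at -0.12 and 0.26. Il12b and Ebi3, also on this list, had probes but none with a ratio on every array, and Il27 had no probe. The list therefore gives no result for these genes.

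Markers of cell types were read beside these ratios. As 16.8% of all genes rose and 14.6% fell, the counts of these short lists are to be read beside those shares. Of 13 measured macrophage markers 10 rose and 1 fell (median 0.73), led by the receptors Msr1 (2.35 ± 0.01) and Fcgr1 (2.13 ± 0.02), with Csf1r (-0.27 ± 0.08) lower. Dendritic cell markers rose in 2 of 6 cases, Fscn1 (0.35 ± 0.10) and Xcr1 (0.25 ± 0.10), T cell markers in 2 of 8, Cd5 (0.86 ± 0.07) and Cd4 (0.31 ± 0.15), and B cell markers in 1 of 7, Cd79a (0.35 ± 0.12); 0 of these 3 lists' genes fell. The remaining T cell markers, Cd3d, Cd3e and Cd3g among them, lay between -0.11 and 0.11. Some of these calls were lost when a set or a dye orientation was left out. Xcr1 did not pass without set 1, 2 or 3 (0.31, 0.225 and 0.23), Cd4 not without set 1 or 3 (0.30 and 0.24), Csf1r not without set 1 or 2 (-0.30 and -0.225), and Fscn1 not without set 1 (0.34). With treated RNA in Cy5 alone Cd79a (0.31, limma adjusted p = 0.127), Csf1r (-0.24) and Xcr1 (0.30) did not pass, nor did Xcr1 (0.21) and Cd4 (0.18) with treated RNA in Cy3 alone. The markers' part in the ligands' ratios was not tested.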

How the data were processed

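The authors deposited, for every array, log2 ratios between its channels (the scale is inferred from signs and range); what the authors did to correct and normalize them is not given in the sources used here. Every deposited column has a median of 0, the highest absolute value is 6.644 (a 100-fold ratio), so larger ratios look capped, and 9.56% to 12.86% of an array's probes are exactly 0, which were taken as missing. Taking the table as Cy5 over Cy3 is likely rather than settled: in the labels the test RNA is the Cy5 one, and known LPS-induced genes come out higher in treated cells. The labels spell the cell line in more than one way, and the form in the sample titles is used.

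Ratios were turned to treated over untreated, probes with a ratio on all 6 arrays and 1 gene symbol in the platform annotation were averaged per gene, and the 2 orientations of each set were averaged. A two-sided limma test (version 3.58.1, lmFit and eBayes, R 4.3.3) compared the 3 set values with 0; p-values were adjusted over 9607 genes by Benjamini-Hochberg and called under 0.05. A model of all 6 arrays gave the dye effects, and the code was tested on simulated data. The number of arrays limits the precision. The ligands and the lists were chosen with earlier results of these data known. Named genes are the 8 ligands and up to 2 genes per list and direction with the largest change past the threshold. The 5 genes nearest to the ligands with the highest and lowest mean are also named. A few more are named as list members, most of which did not pass. Neighbouring genes (assembly GRCm38.p6, order only) and promoter windows (RefSeq, GRCm38.p6) were examined after the values were seen. Figures were drawn with matplotlib 3.10.9 in Python 3.11.15.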

Additional observations from a re-analysis of the deposited data

How the results depend on the processing

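Cd274 (2.42 to 2.81) and Cd83 (1.27 to 1.505) rose and passed under all 14 alternatives, and 2 or 3 ligands rose and 0 fell under each. The third was Cd80 or, with probes kept that had a ratio in at least 2 sets, Icosl. Cd80 passed with treated RNA in Cy3 alone (0.56, adjusted p = 0.0282 in limma) and with no replicate block (0.37, adjusted p = 0.0476); leaving out a set gave 0.26 to 0.55. Ratios near 0 changed sign without passing. Pdcd1lg2 was at -0.013 on the Cy5 arrays alone. Tnfsf4 was at -0.048 there, at -0.10 with exact zeros kept, at -0.19 with probes that had a ratio in every set or in at least 2 sets, and at -0.004 to 0.031 with a set left out. Slamf1 was at -0.13 on the Cy3 arrays alone, -0.026 after quantile normalization, -0.022 on a common scale, and -0.10 to 0.078 with a set left out. On the Cy5 arrays alone Srrm3 (0.08), Acbd6 (0.069), Slc35f4 (0.046), Mapk1ip1 (0.04) and Col10a1 (0.08) changed sign, and with a set left out Srrm3 ran from -0.13 to 0.023, Acbd6 from -0.14 to 0.038, Slc35f4 from -0.10 to 0.014 and Col10a1 from -0.076 to 0.058. The cause of these changes was not tested.

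Deviations of arrays from the mean of their orientation correlated at 0.188, 0.05 and 0.544 for same-numbered arrays of sets 1, 2 and 3. Across sets 1 and 2 the values were 0.188 and 0.196, and between set 3 and the others -0.365 to -0.214. Same-numbered arrays of sets 1 and 2 were thus no more alike than differently numbered ones of these sets, while those of set 3 were. The deviations within an orientation cancel out for each probe, so these values are not independent. A positive value for set 3 brings negative ones between set 3 and the others. With the set as a replicate block, 1653 genes rose and 1435 fell; with no replicate block 1909 rose and 1740 fell, against 1618 and 1400. Of the companion genes, 27 to 36 rose and 4 to 6 fell under the alternatives. With exact zeros kept, probes at 0 on all arrays were left out.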

Other observations

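Genes beside the other ligands were looked up in the same way, 4 protein-coding genes on each side. Around all 8 ligands, 31 neighbours were measured, of which 13 rose and 3 fell (41.9% and 9.68%), beside 16.8% and 14.6% of all genes; 4 of those that rose lie around Cd274. The neighbourhood was not tested. Among the neighbours of Cd86, whose own ratio was 0.10, the stefin gene Stfa3, a cysteine protease inhibitor, was at 1.73 (limma adjusted p = 8.77e-05) and the transcription elongation cofactor gene Eaf2 at 0.40 (adjusted p = 0.00728); Stfa3 has near-identical copies, so which of them rose is uncertain. Around Cd83 the chromatin regulator Jarid2, the next gene, fell (-0.49, limma adjusted p = 0.00612), as did Nol7 (-0.43, adjusted p = 0.0138). Mcur1, a regulator of mitochondrial calcium uptake (0.47, limma adjusted p = 0.00364), and Dtnbp1 (0.375, adjusted p = 0.03) rose. Around Cd80 the copper chaperone Cox17, the fourth gene away (0.79, limma adjusted p = 0.000311), and the nearer Pla1a (0.43, adjusted p = 0.0384) and Tmem39a (0.28, adjusted p = 0.0297) rose.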
